A study of Homo sapiens with 8 samples.

Results

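The promoters described here are those of the 77 genes for cytosolic ribosomal proteins, 46 of the large and 31 of the small ribosomal subunit, out of 20098 protein-coding genes on chromosomes 1 to 22 and X. They were chosen by symbol: RPL or RPS followed by digits and at most a final A or X, together with RPLP0, RPLP1, RPLP2 and RPSA. The other 20021 protein-coding genes served as the comparison. A promoter was counted as bound in a list when the summit of a peak, its highest point, lay within 1 kb of any annotated transcriptional start site (TSS) of the gene.

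ChIP-Seq was performed in PC-3 cells, an established human prostate cancer cell line. An anti-HoxC5 antibody was used on unmodified cells in 2 libraries (endogenous HoxC5, replicates 1 and 2) and on cells overexpressing HoxC5 in 1 library, and an anti-Pbx4 antibody was used on cells overexpressing Pbx4 in 1 library. The study's text describes both overexpressed proteins as Flag-tagged. The lists held 2525 peaks for endogenous replicate 1, 170 for endogenous replicate 2, 67196 for overexpressed HoxC5 and 153620 for overexpressed Pbx4. The lists ended at different q-values, the highest being 0.0398, 0.0499, 0.00997 and 0.0490 in the same order, so the overexpressed HoxC5 list was the most strictly limited. The study's methods give an average depth over libraries only, and the depth of each library cannot be read from the lists. A missing peak is therefore a peak not called at a depth that is unknown for that library. The lists also hold no expression values, so the identity of the cells and the overexpression could not be checked against marker genes. With 1 library for each overexpressed protein, a difference between those lists compares libraries. Intervals are exact Clopper-Pearson 95% intervals and cover counting error only. No test was run across promoters, which are not replicates of a condition.

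HoxC5 is a homeodomain transcription factor, and Pbx4 belongs to the TALE homeodomain proteins that bind DNA together with Hox proteins. Ribosomal proteins fold onto ribosomal RNA to form the small subunit, which decodes mRNA, and the large subunit, which joins amino acids. Their genes are scattered over the genome and are transcribed at high, coordinated levels in growing cells. Their transcripts typically begin with a C followed by a run of pyrimidines, the 5′ terminal oligopyrimidine (TOP) sequence through which growth signals control their translation. In hg19, 58 of the 77 members (75.3%) had a C at the canonical start, the start of the transcript that the annotation marks as representative, with 4 pyrimidines after it. Of the other genes, 4.29% did.

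The sequences under the summits that carried a known word are shown first, because both the words that were present and those that were missing describe these sites. Each window of hg19 is written 5′ to 3′ on the strand of its gene, lies outside annotated exons, and has the word in capitals. CCGGAAG, the core recognised by ETS factors, lay within 50 bp of the HoxC5 summit at 14 of 74 members with a HoxC5 peak (18.9%). At the other promoters with a HoxC5 peak the share was 9.71%. From genes without a Pbx4 peak or with a high Pbx4 fold, 5 examples are shown. CTTCCGG is the same word on the opposite strand.
RPL3: gctcgcacgCCGGAAGgggcggggc
RPL6: gccccagatCCGGAAGgaagtgaga
RPL29: cttgcgttCTTCCGGgcttcggaa
RPS3A: ttcttgaggCCGGAAGaataacagg
RPS21: tggcgtgacCCGGAAGcgctcgccg
These windows lie at chr22:39715670-39715694 (minus strand), chr12:112847458-112847482 (minus strand), chr3:52030000-52030023 (minus strand), chr4:152020688-152020712 (plus strand) and chr20:60962087-60962111 (plus strand), in that order.

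Windows with a homeodomain-type word under a HoxC5 summit were rarer. TAATTA or TAATGA lay within 50 bp of the HoxC5 summit at RPS14, RPL13A and RPS18, and the windows of the first 2 fell outside exons. TAATTA was found at 1.35% of the members with a HoxC5 peak and 0.954% of the other promoters with one. For TAATGA the shares were 2.70% and 3.49%, so both words were near the background.
RPS14: ccctagcttTAATTAaggccgttt
RPL13A: taacatccaTAATGAagcaaaatg
They lie at chr5:149829665-149829688 (minus strand) and chr19:49990998-49991021 (plus strand). The next window comes from the Pbx4 summit at RPS4X, the member with the highest Pbx4 fold enrichment, and holds an AP-1 word (TGANTCA).
RPS4X: gagctgggcTGAGTCAtaatgatta
It lies at chrX:71492923-71492947 (minus strand). In this window a TAATGA directly follows the AP-1 word.

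Endogenous HoxC5 peaks were not found at ribosomal protein promoters. None of the 77 had a peak in replicate 1, against 681 of the other promoters (3.40%), and none had a peak in replicate 2, against 42 (0.210%). In either replicate the count was 0 of 77, against 686 of the others (3.43%). A count of 0 of 77 allows a share of up to 3.90%, and its 95% interval reaches 4.68%. At the share of the other promoters in replicate 1, 2.62 members would have carried a peak, so a lower share than elsewhere was not detectable with this number of promoters. The nearest replicate 1 summits lay 1447 bp from a TSS of RPL41, 5472 bp from RPSA and 10927 bp from RPL10, and the median distance over the 77 genes was 208524 bp.

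After overexpression of HoxC5, 74 of the 77 ribosomal protein promoters (96.1%, 95% interval 89.0 to 99.2%) had a HoxC5 peak, against 55.0% of the other promoters. At that background share 42.3 members would have had a peak. All 46 genes of the large subunit (100%, 95% interval 92.3 to 100%) and 28 of the 31 of the small subunit (90.3%, 74.2 to 98.0%) were among them. RPS15A was among the 3 without a HoxC5 peak, and its nearest HoxC5 summit lay 2832 bp away. Of the 74, the summit farthest from its nearest TSS was that of RPS14, at 339 bp, so no member lay close to the 1 kb limit in this list.

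Overexpressed Pbx4 gave a different picture at the same promoters. Of the 77, 28 (36.4%, 95% interval 25.7 to 48.1%) had a Pbx4 peak, against 42.1% of the other promoters. The Pbx4 list was the longer and ended at a higher q-value than the HoxC5 list. With both lists limited to a −log10 q of at least 5, Pbx4 was found at 21 members (27.3%, others 33.2%) and HoxC5 at 69 (89.6%, others 49.4%). The interval over the whole Pbx4 list includes the share of the other promoters. Both proteins had a peak at 27 members (35.1%), against 34.3% of the others, which is near the background. HoxC5 and Pbx4 peaks overlapped at 20 of these 27 (74.1%, others 75.1%), so a gene with both need not have them at the same site. HoxC5 alone was found at 47 members (61.0%) and at 20.6% of the others. Pbx4 alone was found at 1 member (1.30%, others 7.77%), and 2 members, RPS15A among them, had a peak of neither (2.60%, others 37.3%). Among promoters with a HoxC5 peak, 36.5% of the members and 62.5% of the other genes also had a Pbx4 peak. Pbx4 peaks lay at 20 of 46 large-subunit genes (43.5%, 95% interval 28.9 to 58.9%) and 8 of 31 small-subunit genes (25.8%, 11.9 to 44.6%), and these intervals overlap.

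**Figure D1:**
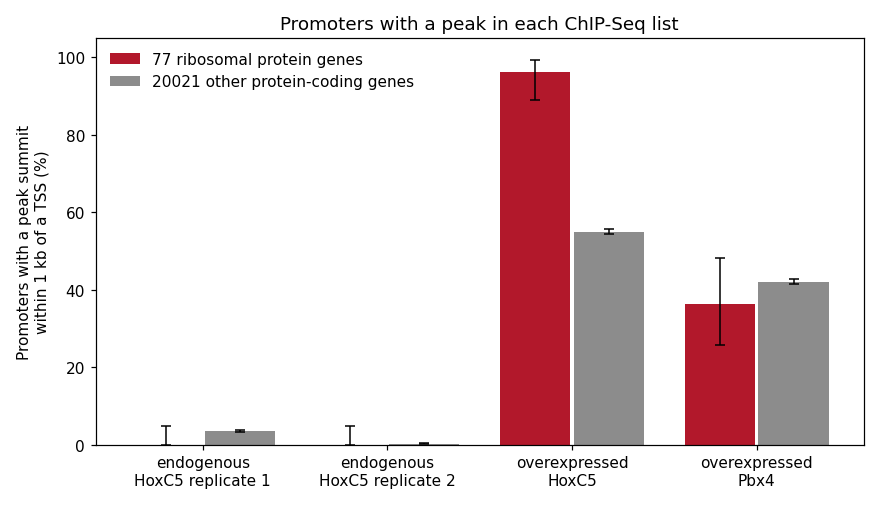
Share of promoters with a peak (vertical axis, percent) in each of the 4 ChIP-Seq lists (horizontal axis), for the 77 ribosomal protein genes (red) and 20021 other protein-coding genes (grey), with exact 95% intervals. The red bar stands at 96.1% for overexpressed HoxC5, at 36.4% for overexpressed Pbx4 and at 0 in both endogenous lists.

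The peaks of HoxC5 at these promoters covered a wide range of fold enrichment, the authors' ratio of the peak to the local background. Where a gene had several peaks, the one with the lowest q-value was taken. RPL22, an RNA-binding protein of the large subunit, had the highest fold, 18.3 with a −log10 q of 62.5, and was followed by RPL37 with 15.3, RPS7 with 14.6, RPS6 with 14.4 and RPS18 with 13.1. RPS6 is the ribosomal substrate of the S6 kinases, and RPS7 is mutated in Diamond-Blackfan anaemia, an inherited failure of red cell production. The same 5 genes were unalike in the Pbx4 list, where RPL37 had a fold of 7.31, RPS7 of 6.57 and RPL22 of 2.86, while RPS6 and RPS18 had no peak. The Pbx4 summit of RPL37 lay at an alternative start, 2740 bp from its HoxC5 summit. The Pbx4 fold of RPL22 was the lowest of the 28. The lowest HoxC5 fold was that of RPSA, the laminin receptor precursor and a small-subunit protein, at 2.94 with a −log10 q of 3.52.

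Over the 74 members with a HoxC5 peak, the median fold was 6.69 (range 2.94 to 18.3), against 6.36 at the other promoters with a peak. The fold was at least 5 at 57 of the 74 (77.0%, others 76.6%) and at least 10 at 10 of the 74 (13.5%, others 11.3%). In height the members therefore lay near the other bound promoters. By q-value the median member peak stood 31.8% of the way down the list and the median of the others 46.2%, with a median −log10 q of 14.5 and 10.9. The peaks were also wider, with a median of 382 bp against 304 bp.

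Shortening the lists showed how early the members entered them. Among the 20000 HoxC5 peaks of lowest q, 33 members (42.9%) had a peak, against 17.0% of the other promoters. Among the 20000 Pbx4 peaks of lowest q there was 1 member (1.30%), against 6.05% of the others. With the Pbx4 list cut to the 67196 peaks of the HoxC5 list, 11 members (14.3%) had a peak, against 19.5% of the others. The 2500 HoxC5 peaks of lowest q, close in number to the endogenous replicate 1 list, held 4 members (5.19%) and 1.69% of the others.

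**Figure D2:**
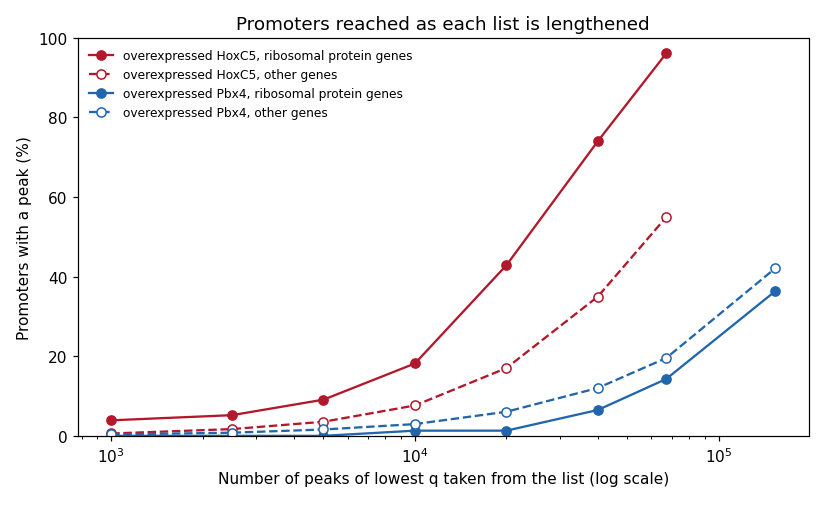
Share of promoters with a peak (vertical axis, percent) against the number of lowest-q peaks taken from the list (horizontal axis, log scale) for overexpressed HoxC5 (red) and overexpressed Pbx4 (blue), with ribosomal protein genes as filled circles and solid lines and other genes as open circles and dashed lines. At 20000 peaks the ribosomal protein genes stand at 42.9% for HoxC5 and 1.30% for Pbx4.

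The HoxC5 summits lay close upstream of the canonical TSS. With summits assigned to the canonical start alone, 74 members again had a HoxC5 peak, against 48.8% of the others, and 20 members (26.0%, 95% interval 16.6 to 37.2%) had a Pbx4 peak, against 27.9%. The median position of the HoxC5 summit was −66.5 bp, negative values being upstream, with quartiles of −106 and −21.3 bp and a range from −691 to 157 bp. At the other promoters with a peak the median was similar, −75 bp, with wider quartiles of −209 and 6 bp. The summit was upstream at 62 of the 74 members (83.8%, others 73.7%). It lay within 100 bp of the TSS at 53 of them (71.6%), against 42.5% of the other promoters with a peak, and the peak covered the TSS itself at 68 (91.9%, others 62.4%). Pbx4 summits stood farther away in both sets, with a median of −132.5 bp over 20 members and −138 bp at the others. Of the 20, 4 (20.0%, others 19.0%) lay within 100 bp.

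**Figure D3:**
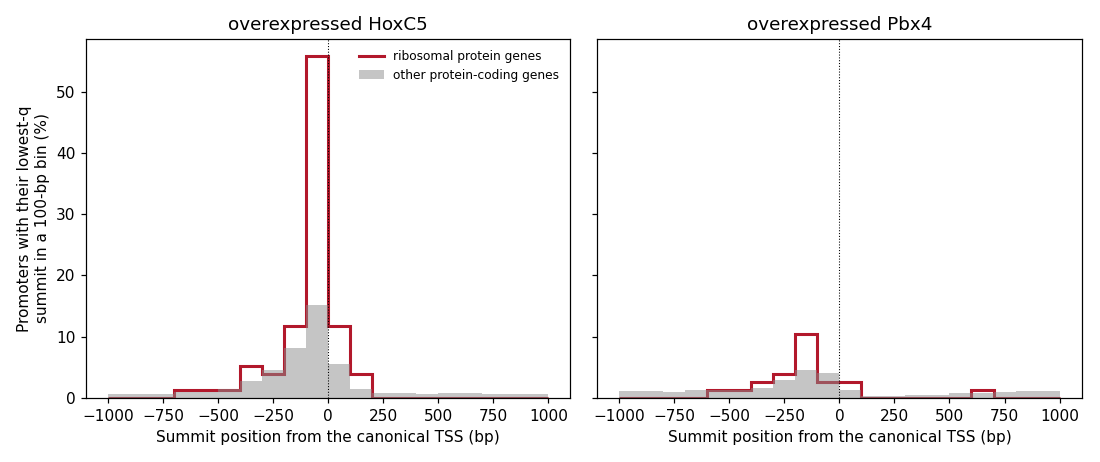
Position of the lowest-q summit from the canonical TSS (horizontal axes, bp in bins of 100 bp, negative values upstream) as a percent of all promoters of the set (vertical axis), for overexpressed HoxC5 (left) and overexpressed Pbx4 (right), with ribosomal protein genes as red outlines and other genes in grey. In the bin just upstream of the TSS, HoxC5 had its summit at 55.8% of the ribosomal protein genes and 15.1% of the others.

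At 19 members both proteins had a summit near the canonical start. The summits were a median of 83 bp apart (range 15 to 677 bp), against 163 bp at the other promoters with both. They lay within 100 bp of each other at 12 of the 19 (63.2%, others 38.5%), and the Pbx4 summit was the more upstream at 13 of the 19 (68.4%, others 54.6%). Summits closest to each other were those of RPL35A, 15 bp apart at −327 and −342 bp, and RPS7, 17 bp apart at −86 and −103 bp. RPL35A encodes a large-subunit protein that is also mutated in Diamond-Blackfan anaemia, and it had a HoxC5 fold of 12.3 and a Pbx4 fold of 6.24.

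Among the 5 strongest Pbx4 peaks were those of RPS4X with a fold of 11.4, RPL6 with 9.77, RPL3 with 8.09 and RPL36A with 7.63. None of these 4 was within 1 kb of the canonical start. At RPS4X, the X-linked gene of a small-subunit protein, the Pbx4 summit lay 4131 bp inside the gene at an alternative start, 26 bp from a HoxC5 summit with a fold of 8.77. The RPL36A peak stood 4948 bp and the RPL3 peak 3172 bp downstream of the canonical start. The RPL6 peak was 998 bp from an alternative start, on the side of the neighbouring gene PTPN11 and just inside the 1 kb limit, and the nearest Pbx4 summit outside it was at RPL7A, at 1003 bp. In all, 8 of the 28 members with Pbx4 (28.6%) had it at an alternative start and none near the canonical start, near the share of the other genes with Pbx4 (33.6%). They were RPL3, RPL6, RPL8, RPL30, RPL36A, RPL37, RPL37A and RPS4X.

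By role in the ribosome, HoxC5 peaks were spread over all the groups, as over the whole set. HoxC5 was found at 96.1% of all members and 55.0% of the other genes, and Pbx4 at 36.4% and 42.1%. The stalk proteins RPLP0, RPLP1 and RPLP2, which recruit translation factors to the large subunit, had HoxC5 folds of 6.93, 7.69 and 6.44, and Pbx4 was found at RPLP0 (4.86) and RPLP1 (5.27). RPL5 and RPL11, which travel with 5S ribosomal RNA and bind MDM2 when ribosome assembly is disturbed, had HoxC5 folds of 8.59 and 6.59 and no Pbx4 peak. All 5 proteins around the exit tunnel for the new peptide had HoxC5 peaks, with folds of 8.42 at RPL39, 7.23 at RPL35, 6.09 at RPL23A, 4.64 at RPL4 and 3.21 at RPL17. Of these RPL35 (5.33) and RPL23A (5.81) also had Pbx4. RPS2, RPS3 and RPS23, which line the entry and decoding path of the mRNA, had HoxC5 folds of 7.64, 4.05 and 3.51 and no Pbx4 peak.

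Of 11 members listed here as mutated in Diamond-Blackfan anaemia, 10 had a HoxC5 peak (90.9%, all members 96.1%, other genes 55.0%). A Pbx4 peak was found at 3 of the 11 (27.3%, all members 36.4%, other genes 42.1%), namely RPS7, RPS24 and RPL35A. The 11 are a selection, and these counts hold for that selection only. The HoxC5 folds of these genes ran from 4.27 at RPL26 and 4.87 at RPS24 through 6.17 at RPS19, 6.70 at RPS10, 6.93 at RPL15 and 9.15 at RPS26 to 14.6 at RPS7. RPS14, the ribosomal gene lost in the 5q− syndrome, had a fold of 5.69 in HoxC5 and no Pbx4 peak. RPS27A, which is made as a fusion with ubiquitin, had 4.47 and no Pbx4 peak. On the X chromosome, HoxC5 was found at all 4 members, and RPL10, which is needed for the last steps of large-subunit maturation, had a fold of 6.81 and no Pbx4 peak.

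Some promoters were shared with a neighbouring gene. With no other protein-coding TSS within 1 kb, HoxC5 was found at 50 of 53 members (94.3%) and 48.7% of 15331 other genes, and Pbx4 at 21 of 53 (39.6%) and 39.7%. With such a TSS, HoxC5 was found at 24 of 24 members and 75.4% of 4690 other genes, and Pbx4 at 7 of 24 (29.2%) and 2343 of the 4690. The members had a mean of 8.58 annotated starts, against 7.27 for the others, but their windows covered less sequence, a mean of 4059 bp against 6561 bp.

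Base composition differed between the sets. The promoters, taken from 250 bp before to 50 bp after the canonical start, had a median GC content of 59.3% in the members and 63.7% in the others. Among promoters with a GC content between the quartiles of the members, 55.7 to 63.0%, HoxC5 peaks lay at 40 of 42 members (95.2%) and 59.1% of 4420 others, and Pbx4 peaks at 18 of 42 (42.9%) and 44.9%. The HoxC5 shares of members and others also differed within that GC range, and the part of base composition in these shares was not tested.

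The Hox, Hox-Pbx and Meis words sought here lay under few HoxC5 summits of the members and of the other bound promoters alike. The putative HoxC5 motif that the paper derived from its endogenous peaks was not sought, and no expected count of the words was computed. The words TGATTGAT and TGATTAAT (Hox-Pbx), TAATTA and TAATGA (Hox) and TGACAG (Meis) were sought on both strands within 50 bp of the summit, and words could share bases. Neither Hox-Pbx word was found at the 74 members, against 0.473% and 0.382% of the other bound promoters. A count of 0 of 74 allows up to 4.86% by the 95% interval, which includes both shares. TAATTA lay at 1 (1.35%, others 0.954%), TAATGA at 2 (2.70%, others 3.49%) and TGACAG at 1, RPL24 (1.35%, others 5.13%). The AP-1 word TGANTCA was found at 0 of 74, which allows up to 4.86% by the 95% interval, against 7.78% of the others.

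The ETS word CCGGAAG shown above was found under 14 of the 74 HoxC5 summits (18.9%, 95% interval 10.7 to 29.7%), against 9.71% of the others. It was also present in 27 of the 77 promoters (35.1%, 24.5 to 46.8%), against 13.9% of the others. With the promoter placed at the 5′ end of the gene record instead, the shares were 27.3% and 11.7%. CCAAT, the NF-Y word, lay under 17 summits (23.0%, 14.0 to 34.2%, others 15.6%). TATAAA, the TATA word, lay under 4 (5.41%, 1.49 to 13.3%, others 1.81%) and CCCCGCCC, the SP/KLF word, under 5 (6.76%, others 10.3%). The intervals of CCAAT and TATAAA include the shares of the others. In the promoters by canonical start, CCAAT lay in 33.8% (others 35.9%), TATAAA in 7.79% (others 9.83%) and CCCCGCCC in 19.5% (others 33.9%). AAGATGGC, the YY1 word, lay under none of the 74 summits (others 1.80%) but in 10 of the 77 promoters (13.0%, 6.41 to 22.6%, others 3.99%). With the promoter placed at the 5′ end of the gene record, it lay in 4 of the 77 (5.19%, 1.43 to 12.8%, others 3.02%). That interval includes the share of the others. GCGCATGC (NRF1), CACGTG (E-box) and TGACGTCA (CRE) lay under 1 summit each, against 1.12%, 3.65% and 1.54% of the others.

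The same words were sought under the 28 Pbx4 summits. TGANTCA was found at 4 members (14.3%, 95% interval 4.03 to 32.7%), namely RPL8, RPL30, RPS4X and RPS24, against 17.0% of the other promoters with Pbx4. TGACAG was found at 2, RPL24 among them (7.14%, others 12.4%), and CCGGAAG at none (others 2.35%). CCAAT lay under 4 (14.3%, others 19.5%), TAATGA under 2 (7.14%, others 4.98%) and CCCCGCCC under 2 (7.14%, others 3.84%), and all 3 words were also found under HoxC5 summits. RPL24 carried that Meis word under both of its summits, 20 bp apart, with a HoxC5 fold of 5.24 and a Pbx4 fold of 7.41. These matches describe letters in the sequence and show no binding site.

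Other gene groups of protein synthesis and turnover had similarly high HoxC5 shares. HoxC5 was found at 94.9% of 78 mitochondrial ribosomal protein genes (95% interval 87.4 to 98.6%), 87.1% of 70 translation initiation and elongation factor genes (77.0 to 93.9%), 92.3% of 39 proteasome subunit genes (79.1 to 98.4%) and 22 of 22 ribosome biogenesis genes. The interval of each group overlaps that of the cytosolic ribosomal protein genes, so the high HoxC5 share was not particular to them. Pbx4 was found at 48.7%, 57.1%, 66.7% and 45.5% of the same groups. Of the HoxC5-bound promoters, Pbx4 was present at 37 of 74, 65.6%, 69.4% and 45.5%, in the same order, and at 36.5% of the cytosolic ribosomal protein genes. Endogenous HoxC5 was found at 2, 1, 1 and 2 genes of the groups (2.56%, 1.43%, 2.56% and 9.09%), against 3.43% of all genes outside the members. Those of the last group were NPM1, a nucleolar chaperone, and UBTF, a factor for transcription of ribosomal DNA.

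**Figure D4:**
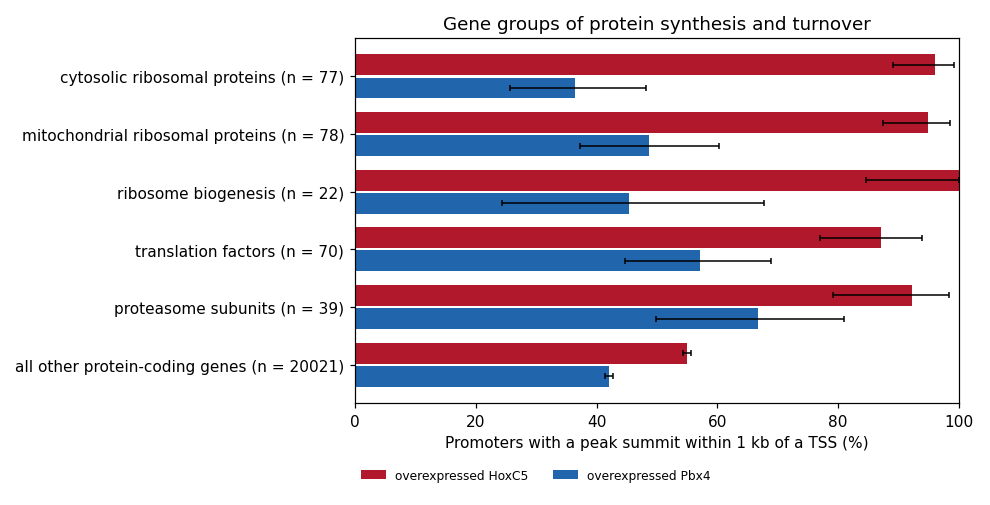
Share of promoters with a peak (horizontal axis, percent) for overexpressed HoxC5 (red) and overexpressed Pbx4 (blue) in gene groups of protein synthesis and turnover and in all other protein-coding genes (vertical axis, with the number of genes), with exact 95% intervals. HoxC5 stands between 87.1% and 100% in the 5 named groups and at 55.0% in the other genes, while Pbx4 runs from 36.4% in the cytosolic ribosomal protein genes to 66.7% in the proteasome genes.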

How the data were processed

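The authors mapped single-end reads to hg19 with BWA-MEM, removed reads of low mapping quality and duplicates (SAMtools), and ran MACS2 on each library without pooling replicates. The methods state a q-value limit of 0.05, while the overexpressed HoxC5 list ended at 0.00997. The MACS2 version and the control of each call are not given in the sources used here. The 4 input libraries were not used here. Each deposited peak has an interval, a summit, a fold enrichment (the ratio to local background), the −log10 of its p-value and q-value, and a score made from the q-value, all as the authors' caller wrote them. Peaks were ranked and described within a list only. Folds of different lists were not compared.

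Summits were assigned to genes with GENCODE 44 lifted to GRCh37. A summit near several genes counted for each. The assignment was checked on 20 simulated sets, in which 40 of 40 planted promoters were recovered in every set. The GRCh37 sequence was searched for words up to 50 bp from each summit and from 250 bp before to 50 bp after each start. Assignment to the canonical start was added after the data were seen. The members, the gene lists, the words and the rule for named genes were chosen with earlier results of these data known. That rule covered members with an endogenous peak (there were 0), members lacking a peak in at least 1 overexpressed list, the 5 highest folds in each of these lists and members of the role groups, and the genes named for a count of words or as nearest to a limit were named after their values were seen. A few genes that this rule covers are not reported here by name. Alternatives were other distances and definitions of a TSS, a fold of at least 5, a −log10 q of at least 5, exclusion of shared promoters, a Pbx4 list of HoxC5 length and each endogenous replicate left out. The software was numpy 2.4.6, scipy 1.17.1, pandas 2.3.3 and matplotlib 3.10.9 under Python 3.11.15.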

Additional observations from a re-analysis of the deposited data

How the results depend on the processing

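Of 58 alternative values for the shares of ribosomal protein promoters with a peak, 51 stayed within the 95% interval of the reported value and 7 did not. The 51 include endogenous alternatives that only removed peaks, starts or genes. Those could give only 0 and do not measure stability. With peaks of at least 5-fold enrichment, the HoxC5 share was 74.0% (others 42.4%), the Pbx4 share 20.8% (others 29.9%) and the share with both 18.2% (others 20.0%). With summits up to 2 kb from a TSS, the Pbx4 share was 49.4% (others 52.5%) and the share with both 48.1% (others 42.6%). With the Pbx4 list cut to the length of the HoxC5 list, Pbx4 and both proteins stood at 14.3% (others 19.5% and 16.5%). These settings counted fewer or more peaks and positions, and the cause of the shifts was not tested. Without endogenous replicate 1 or replicate 2 the share in either endogenous list was 0.0% in each case. This was fixed in advance, because neither list had a peak at a member. Within 2 kb the share in either endogenous list was 1.30%, from RPL41. No paired analysis was possible because only the endogenous HoxC5 libraries have replicates and no test was run. The unknown depth of each library and the single library for each overexpressed protein limit all shares to these peak lists.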

Other observations

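Processed pseudogenes of ribosomal proteins, copies of their mRNAs inserted elsewhere in the genome, carried few HoxC5 peaks. Of 1473 such pseudogenes, 30 (2.04%) had an overexpressed HoxC5 summit and 122 (8.28%) an overexpressed Pbx4 summit within 1 kb of an annotated start, against 3.22% and 7.80% of 8972 other processed pseudogenes. Endogenous HoxC5 replicate 1 had a summit at 1 of them and replicate 2 at 0. Reads that map equally well to several copies have low mapping quality and were removed by the authors, and the part of this filter in these shares was not tested.

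FAU, which encodes a ribosomal protein fused to a ubiquitin-like protein and falls outside the symbol rule, had peaks of both overexpressed proteins, with a HoxC5 fold of 5.04 and a Pbx4 fold of 6.17. Of 8 ribosomal-protein-like paralogs, 6 had a HoxC5 peak and 3 a Pbx4 peak. The genes without a peak in either list were RPL3L and RPL10L, while RPL22L1, RPL36AL and RPL39L had both, with HoxC5 folds of 7.59, 6.22 and 6.30.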
